A study of Mus musculus with 12 samples.

Results

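The 7 genes that write, maintain and oxidise DNA methylation, Dnmt1, Dnmt3a, Dnmt3b, Uhrf1, Tet1, Tet2 and Tet3, were followed in hematopoietic stem cells (HSCs) of the mouse, which live in the bone marrow and give rise to all blood lineages. They were chosen by name, as every probe set annotated to only 1 of these symbols. This gave 10 of the 21780 probe sets with 1 gene symbol and 7 of 19935 genes. Tet1 had 3 probe sets, Tet3 had 2 and the other genes had 1 each, and each gene was represented by its brightest probe set.

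The study treated mice aged 2 to 3 months by subcutaneous injection of 100 µL of corn oil. For the treated animals the oil carried 2 µg of estradiol (E2), the main natural estrogen. There were 4 groups, males given oil, males given E2, females given oil and females given E2, all with 3 arrays labelled as biological replicates from 3 mice. The labels give no transgene, deletion or other allele for any group. For each sample 5000 to 7000 lineage- cells that were c-kit+, Sca-1+, CD150+ and CD48- were sorted, and the amplified RNA was hybridised to an Affymetrix Mouse Gene 1.0 ST array. Because RNA was pooled over a sorted population, fewer cells of a type and less RNA per cell cannot be told apart.

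The deposited values are linear intensities with array medians between 143 and 159, and the lowest correlation between arrays was 0.973. All 14 measured HSC markers were above the filter level of 182 used here, among them Slamf1 (CD150) at 350 to 686 and Kit at 1820 to 2756, whereas Cd48 lay at 62.8 to 116. Markers said here to fall or rise were called by limma averaged over the sexes, at an adjusted p under 0.05 (described below). Of all genes tested, 3.12% were called higher and 5.78% lower in this way. Of the 14 HSC markers, Kit, Procr, Gata2, Robo4 and Esam fell with E2 (log2 differences of −0.52 to −0.30). Mast cell markers were above the filter in 0 of 6 cases, B cell markers in 1 of 7, monocyte markers in 2 of 6, T or NK cell markers in 3 of 10, erythroid markers in 3 of 7 and stromal or endothelial markers in 3 of 9. Granulocyte markers were above it in 10 of 12 cases, with S100a8 at 1561 to 6005, and 1 of them, Prtn3, fell with E2. The summed intensity of all 12 granulocyte markers was 9207 to 18745 in oil males and 8462 to 14935 in E2 males. In females this sum was 10440.5 to 23566 under oil and 6293 to 16324 under E2. Progenitor markers were above the filter in 4 of 5 cases, of which Flt3 (−1.10), Cd34 (−0.29) and Satb1 (−0.35) fell and Cebpa rose (0.80). Megakaryocyte markers were above it in 7 of 8 cases, and 4 of these fell and 1 rose with E2. The summed intensity of all 8 megakaryocyte markers was 3787 to 4228 in oil males and 3062 to 3373 in E2 males. In females this sum was 3797 to 4142 under oil and 2342 to 3165 under E2. Among the other cell types, 1 B cell marker (−0.41) and 1 T or NK cell marker (−1.67) fell. In the same comparison 1 erythroid marker (0.36) and 1 stromal or endothelial marker (highest value 0.90) rose. The part of these shifts in the results was not tested. Among the E2 females, replicate 1 stood apart from replicates 2 and 3 for several genes and had the lowest weight of all arrays when weights were estimated (0.326). Replicates 2 and 3 of this group had the next lowest weights (0.597 and 0.664), against 0.879 to 2.10 for the arrays of the other groups. Results that rest on replicate 1 of the E2 females are given with and without it.

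DNA methyltransferases add a methyl group to cytosine, mostly at CG dinucleotides. DNMT1, brought to newly replicated DNA by UHRF1, copies the pattern of the parent strand, whereas DNMT3A and DNMT3B set new marks. TET dioxygenases oxidise 5-methylcytosine, the first step of its removal, and loss of Dnmt3a or Tet2 is known to change the balance of self-renewal and differentiation in HSCs.

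Uhrf1 rose with E2. It encodes the protein that binds hemimethylated CG sites behind the replication fork and recruits DNMT1. RefSeq promoter windows for the mouse build GRCm38.p6 (250 bases before a transcript start and 50 after it) are shown for Uhrf1, the gene that changed, and for Dnmt1, its partner. They were picked because among the 12 windows of the 7 genes these alone held TTTCGCGC or TTTGGCGC. Both are forms of the consensus bound by the cell-cycle factors of the E2F family, and other forms of it were not searched. The Uhrf1 window is chr17:56304063-56304362 on the plus strand and the Dnmt1 window chr9:20952574-20952873 on the minus strand. Each is written 5′ to 3′ in the direction of transcription, with these letters, on either strand, in capitals.
Uhrf1: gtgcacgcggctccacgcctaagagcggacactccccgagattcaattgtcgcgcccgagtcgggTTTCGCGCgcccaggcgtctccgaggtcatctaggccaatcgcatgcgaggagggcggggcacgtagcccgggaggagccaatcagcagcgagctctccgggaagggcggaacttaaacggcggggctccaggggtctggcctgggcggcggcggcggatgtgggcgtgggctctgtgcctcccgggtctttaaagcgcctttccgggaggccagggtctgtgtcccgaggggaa
Dnmt1: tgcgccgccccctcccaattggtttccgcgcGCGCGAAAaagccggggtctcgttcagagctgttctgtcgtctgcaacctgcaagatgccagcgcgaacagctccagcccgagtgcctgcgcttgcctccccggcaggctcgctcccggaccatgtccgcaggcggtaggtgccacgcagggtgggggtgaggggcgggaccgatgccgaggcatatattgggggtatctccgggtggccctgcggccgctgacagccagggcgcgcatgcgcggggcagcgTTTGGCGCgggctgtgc

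In the Uhrf1 window TTTCGCGC begins 185 bases before the start. In the Dnmt1 window it lies on the reverse strand, 219 bases before the start, and TTTGGCGC begins 33 bases after the start. Among all 32851 RefSeq mouse windows of 300 bases, searched on both strands, TTTCGCGC was found in 0.323%, TTTGGCGC in 0.514% and either in 0.813%. The 1 window of Hells, a related gene described below that also rose with E2, held neither form. It does hold TTTCCCGC, a similar sequence that was not searched in any window. The search therefore does not set Hells apart from Uhrf1 and Dnmt1. The palindromic estrogen response element was found in 0 of the 12 windows and in 0.07% of all windows. The Sp1 box GGGCGG occurred in 10 of the 12 windows and the NF-Y box CCAAT in 5, against 35.7% and 37.4% of all windows. The 12 windows are not independent, because 2 of those of Dnmt3a overlap. They hold 2 to 57 CG dinucleotides, most of them more than the median window, so the shares over all windows are not a matched background. The printed windows hold 33 CG dinucleotides each, against a median of 7, and the Tet2 window holds 57, more than 99.8% of all windows. These matches describe letters and show no binding.

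The intensity of Uhrf1 in oil males was 606, 581 and 641 on the 3 arrays. In E2 males it was 917, 995 and 920.1. Every E2 array of the males was above every oil array.
In oil females Uhrf1 read 756, 513 and 590.1, and in E2 females 1195, 791 and 726. Replicates 1 and 2 of the E2 females lay above all oil females, and replicate 3 lay below the highest of them. Against the mean of the oil arrays of the same sex, Uhrf1 was higher on 6 of 6 E2 arrays.

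Differences were tested on log2(intensity + 1) with limma, which fits 1 mean per group to all 12 arrays and moderates the spread of each gene with that of all genes. P-values were adjusted over 9967 genes by the Benjamini-Hochberg method, and genes below 0.05 after adjustment were called. All 7 genes and all 10 probe sets were above the filter, which kept genes whose mean level exceeded the median of all genes. Averaged over the sexes, Uhrf1 was higher under E2 by a log2 difference of 0.58 ± 0.12 (SE; limma adjusted p = 0.00911), a fold of 1.49 with a 95% interval of 1.25 to 1.78. It was the only gene called among the 7. In this comparison 8.9% of all genes were called (3.12% higher and 5.78% lower), so a single call among 7 genes is near the background. The call held in each of the 12 fits that left out 1 array, and without replicate 1 of the E2 females Uhrf1 was higher by 0.47 (adjusted p = 0.00579).

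Within each sex Uhrf1 missed the threshold. In males the means were 609 ± 30.4 under oil and 944 ± 44.3 under E2 (SD, n = 3), a log2 difference of 0.63 ± 0.17 (SE; limma adjusted p = 0.0937). In females the means were 619.7 ± 124 under oil and 904 ± 254 under E2, a difference of 0.53 ± 0.17 (adjusted p = 0.107). Of the 7 genes 0 were called by limma in males, against 1.43% of all genes (0.572% higher and 0.863% lower). In females 0 were called, against 3.56% (0.813% higher and 2.75% lower). At an unadjusted p under 0.05 there was 1 gene in males, Uhrf1, and 2 in females, Uhrf1 and Tet1. At least 1315 of the 9967 genes in males and 1617 in females lay under that p, so these counts say little by themselves.
The results for Uhrf1 within males and within females depended on the arrays that entered the fit. Uhrf1 was called in males when the 2 male groups were fitted alone (adjusted p = 0.0034), with array weights (0.02) and without replicate 1 of the E2 females (0.0122). It was called in females without replicate 3 of the E2 females (difference 0.67, adjusted p = 0.0441), and without replicate 1 it was 0.31 there (adjusted p = 0.208).

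**Figure D1:**
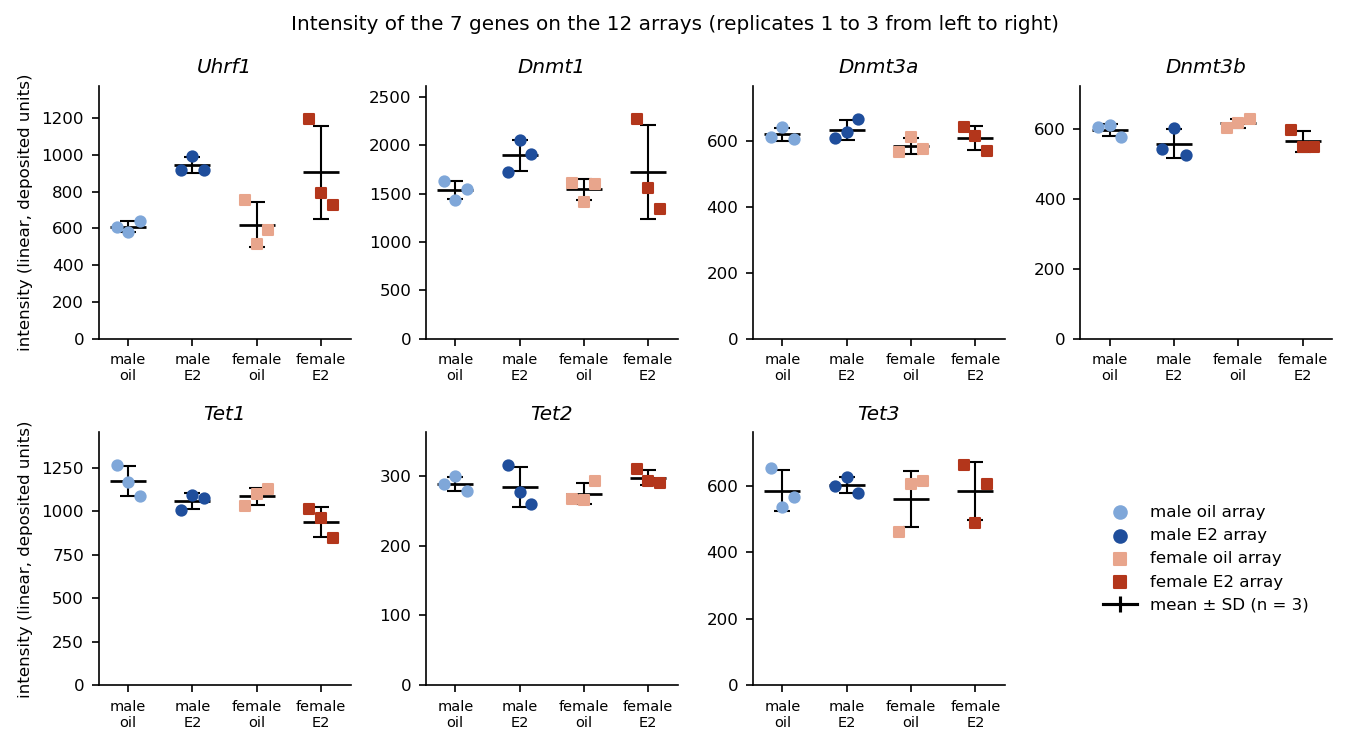
Linear intensity of the 7 genes (vertical axes from 0, a separate scale per gene) on each of the 12 arrays, replicates 1 to 3 from left to right within a group, with the group mean and SD (n = 3). Uhrf1 is higher in E2 males (917 to 995) than in oil males (581 to 641), and the E2 females spread most, from 726 to 1195.

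Dnmt1, the maintenance methyltransferase that copies methylation onto daughter strands, was not called. Its intensity was 1631, 1435 and 1547 in oil males and 1727, 2053 and 1908 in E2 males, with no overlap. In oil females it was 1613, 1413 and 1604, and in E2 females 2273, 1562 and 1337. Replicate 1 of the E2 females was the highest of all 12 arrays and replicate 3 the lowest, so the female groups overlapped fully.
The log2 difference of Dnmt1 was 0.30 ± 0.15 (SE) in males and 0.13 ± 0.15 in females, and the average of both was 0.21 ± 0.11 (limma adjusted p = 0.387, 0.71 and 0.248). The 95% interval of the averaged fold ran from 0.986 to 1.36. The female value rests on replicate 1 of the E2 females, without which it was −0.09.

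Uhrf1 and Dnmt1 were the 2 of 7 genes whose male E2 arrays all lay above the male oil arrays, a pattern found in 13.6% of all genes. The female arrays showed this for 0 of the 7, against 6.95%. With the arrays of both sexes pooled, it was 0 of 7 in either direction, against 1.56% of genes higher and 3.43% lower.

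Dnmt3a, the main de novo methyltransferase of HSCs, stayed within a narrow range. Over all 12 arrays its highest intensity was 1.18 times the lowest. Its intensity was 613, 644 and 605 in oil males, 608, 627 and 667 in E2 males, 567, 612 and 577 in oil females and 641, 616 and 571 in E2 females. The groups overlapped in both sexes. The averaged log2 difference was 0.04 ± 0.06 (SE; limma adjusted p = 0.687), and the 95% interval of the fold, 0.948 to 1.12, excludes a change of the size seen for Uhrf1.

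Dnmt3b, the second de novo enzyme, read lower under E2 without passing the test. Its intensity was 608, 611 and 579 in oil males and 545, 605 and 527 in E2 males, which overlapped. In females it was 605, 618 and 630.1 under oil and 599, 549 and 548 under E2, without overlap. On 5 of 6 E2 arrays it lay below every oil array of the same sex.
The averaged log2 difference of Dnmt3b was −0.12 ± 0.06 (SE; limma adjusted p = 0.231), a fold of 0.923 with an interval of 0.848 to 1.00. The difference was −0.10 in males and −0.13 in females.

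Tet1, which oxidises 5-methylcytosine and carries a CXXC domain that binds CG-rich DNA, was the TET gene with the lowest p, in the direction of lower levels. On its brightest probe set the intensity was 1262, 1168 and 1086 in oil males and 1006, 1092 and 1074 in E2 males. In oil females it was 1029.6, 1097 and 1127, and in E2 females 1012, 962 and 843. The female groups did not overlap and the male groups overlapped by 1 array, and 6 of 6 E2 arrays were below the oil mean of their sex.
The averaged log2 difference of Tet1 was −0.18 ± 0.06 (SE; limma adjusted p = 0.105), a fold of 0.884 with an interval of 0.802 to 0.973. In females it was −0.21 ± 0.09 (adjusted p = 0.235) and in males −0.15 ± 0.09 (adjusted p = 0.49). It was called under none of the alternatives run. Tet1 and Dnmt3b were the 2 of 7 genes whose female E2 arrays all lay below the female oil arrays, against 13.1% of all genes, while in males this held for 0 of 7, against 13%.

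The other probe sets of Tet1 gave smaller differences of the same sign. The second read 947, 908 and 842 in oil males, 774, 852 and 825 in E2 males, 792, 828 and 853 in oil females and 795, 729 and 729 in E2 females. Its averaged difference was −0.14 ± 0.05 (limma adjusted p = 0.146 over 10972 probe sets). The third, the dimmest, lay between 435 and 649.9 and differed by −0.08 ± 0.09 (adjusted p = 0.667). The probe sets thus differ in size by more than 1.5 times, and their adjusted p-values all missed the threshold.

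Tet2, a TET enzyme without a CXXC domain whose loss expands HSCs, read 288, 299.7 and 279 in oil males and 315, 277 and 259.8 in E2 males. In oil females it read 267, 265 and 293, and in E2 females 311, 293 and 289.5. Both sexes overlapped. The averaged log2 difference was 0.04 ± 0.06 (SE; limma adjusted p = 0.721), with a fold interval of 0.939 to 1.13.

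Tet3, the third TET dioxygenase, read 654, 535 and 564 in oil males and 600, 626 and 577 in E2 males on its brightest probe set. In oil females it read 462, 605 and 613, and in E2 females 661, 487 and 604. These groups overlapped, and the averaged difference was 0.05 ± 0.09 (SE; limma adjusted p = 0.785). The second probe set took the other sign in males. It read 274 ± 28.9 under oil and 237 ± 23.1 under E2 there (SD, n = 3), a difference of −0.21 ± 0.10 (limma adjusted p = 0.337 over 10972 probe sets), against 0.04 on the brightest. The direction of Tet3 in males is therefore not settled by these probe sets.

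**Figure D2:**
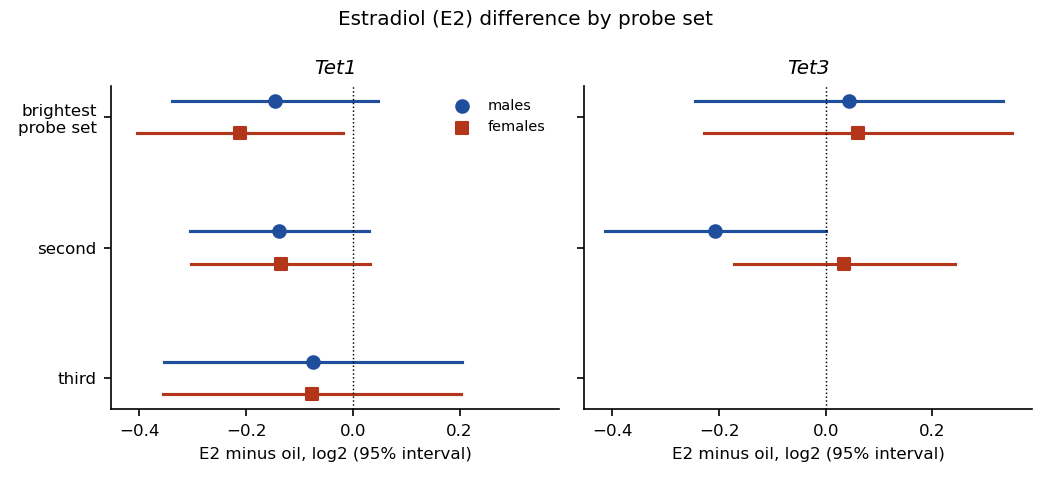
Log2 difference of E2 minus oil for each probe set of Tet1 and Tet3 in males (circles) and females (squares), with 95% intervals from limma. All Tet1 points lie below 0, whereas the 2 Tet3 probe sets differ in sign in males (0.04 and −0.21).

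The 7 genes together had a median log2 difference of 0.03 in males and 0.06 in females, and of 0.04 in the average of both, beside 0.00, −0.02 and −0.01 over all genes tested. By size, Uhrf1's averaged difference exceeded that of 98.6% of genes.

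**Figure D3:**
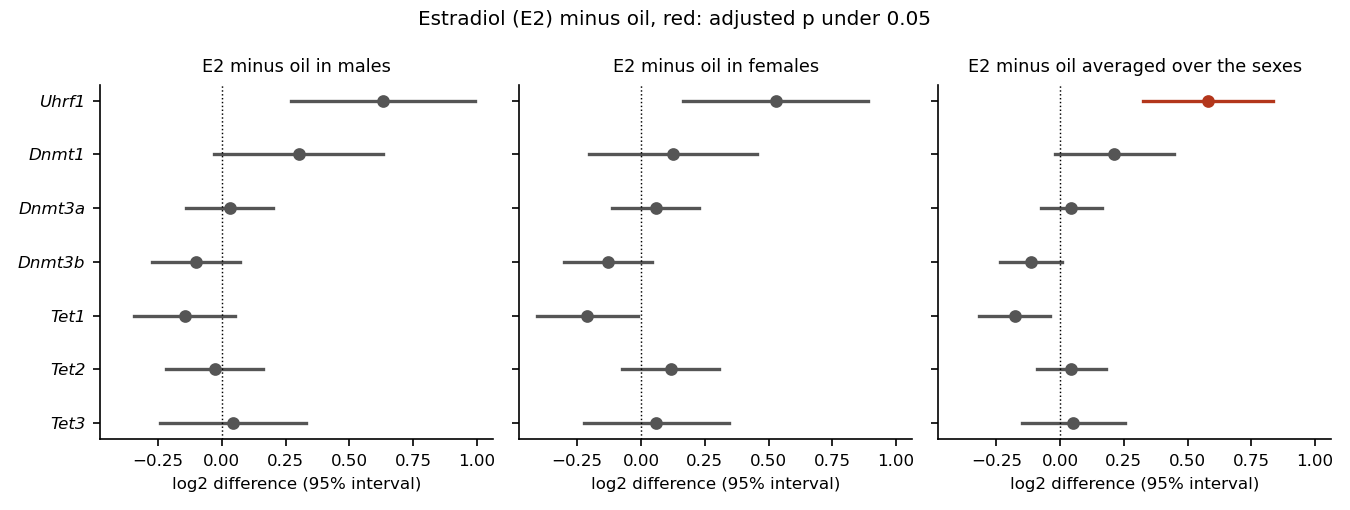
Log2 difference of E2 minus oil for the 7 genes, for males, females and the average of both, with 95% intervals from limma. Uhrf1 in the average (0.58) is the only value called at an adjusted p under 0.05. The intervals of Dnmt1, Dnmt3a, Dnmt3b, Tet2 and Tet3 include 0 in every panel.

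The sexes were compared directly as well. Female minus male differences under oil were called by limma for 0 of the 7 genes, against 0.0401% of all genes, and under E2 for 0 of 7, against 0.01%. At an unadjusted p under 0.05 there were 0 in either. The arrays of the sexes overlapped for every one of the 7 genes under both treatments (5.65% of genes were higher and 7.29% lower without overlap under oil, and 4.1% and 8.72% under E2). Under E2 the lowest p was that of Tet1, at −0.17 in females (limma adjusted p = 0.589).
The female response minus the male response was called for 0 of the 7 genes (limma, 0 at an unadjusted p under 0.05), against 0.01% of all genes. For Uhrf1 it was −0.10 ± 0.24 (SE; adjusted p = 0.983) with an interval of −0.62 to 0.41, wide enough to hold a difference as large as the averaged response in the direction of a weaker female response. For Dnmt1 it was −0.17 with an interval of −0.64 to 0.29. These data therefore neither show nor bound tightly a sex difference of the response.

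Uhrf1 and Dnmt1 are known to be expressed mostly in cycling cells, so their levels were set beside a list of 46 S phase and DNA replication genes that contains neither of them. Of its 44 genes above the filter, 11 rose with E2 averaged over the sexes, 0 fell and 33 did not pass the test (limma), with a median of 0.34. Of all genes 3.12% were called higher and 5.78% lower in that comparison. The 4 with the lowest p were Clspn, a replication checkpoint adaptor, at 0.64 (adjusted p = 0.00357), Tk1, thymidine kinase, at 0.50 (0.00815), Pole, the leading-strand polymerase, at 0.56 (0.00963), and Cdc6, which licenses origins, at 0.76 (0.013). In males 0 of the 44 were called with a median of 0.36, against 0.572% of all genes called higher. At an unadjusted p under 0.05 there were 24 of the 44 in males, and at least 1315 of all 9967 genes. In females 2 were called, with a median of 0.29, against 0.813%. Without replicate 1 of the E2 females, 9 of 43 were called higher in males (159 of all 9967 genes), among them Clspn, Pole, Mcm2 and Mcm5. In that fit 12 of 43 rose in the average (318 of 9967), and the female median was 0.08 with 0 called (133 of 9967).

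Array by array, the mean log2 level of the S phase list relative to the oil males was 0.29, 0.49 and 0.36 in E2 males. It was 0.17, −0.24 and −0.07 in oil females and 0.70, 0.09 and 0.03 in E2 females. As for Uhrf1 and Dnmt1, replicate 1 of the E2 females was the highest of all arrays. The summed intensity of the list ran from 26649 to 30122 in oil males, 34575 to 39649 in E2 males, 24402 to 31745 in oil females and 29228 to 45119 in E2 females, and no gene was at 0.

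Over the 12 arrays the log2 level of Uhrf1 followed the S phase list with Pearson's r = 0.965 (permutation p = 1e-05, the smallest the permutations can give; adjusted 0.00028 over 28 relations) and Spearman's rho = 0.965 (permutation p = 1e-05). The relation held within treatments, with r = 0.935 over the 6 oil arrays (exact permutation p = 0.00833) and 0.990 over the 6 E2 arrays (exact permutation p = 0.00278, the smallest possible). Without the 2 arrays farthest from the median of the list, r was 0.937. For Dnmt1, r was 0.926 (permutation p = 2e-05, adjusted 0.00028) and rho 0.895 (permutation p = 0.00017, adjusted 0.00238). It was 0.822 within oil (exact permutation p = 0.0583), 0.972 within E2 (exact permutation p = 0.00278) and 0.796 without the 2 farthest arrays.
Dnmt1 and Uhrf1 followed each other with r = 0.835 (permutation p = 0.00056, adjusted 0.00523) and rho = 0.783 (permutation p = 0.00339, adjusted 0.0294). Within oil r was 0.671 (exact permutation p = 0.128), within E2 it was 0.968 (exact permutation p = 0.00278), and without the 2 farthest arrays it was 0.702. Dnmt3a showed no such relation that passed the test (r = 0.403 with the S phase list, permutation p = 0.195, adjusted 0.715).
Dnmt3b and Tet1, the 2 genes that read lower, followed each other by rank (rho = 0.776, permutation p = 0.0042, adjusted 0.0294) but not by Pearson's r (0.590, permutation p = 0.04, adjusted 0.28). Their r was 0.198 within oil and 0.290 within E2, neither past the exact permutation test (p = 0.758 and 0.636), and 0.586 for deviations from the 4 group means. It was 0.555 without the 2 farthest arrays.

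**Figure D4:**
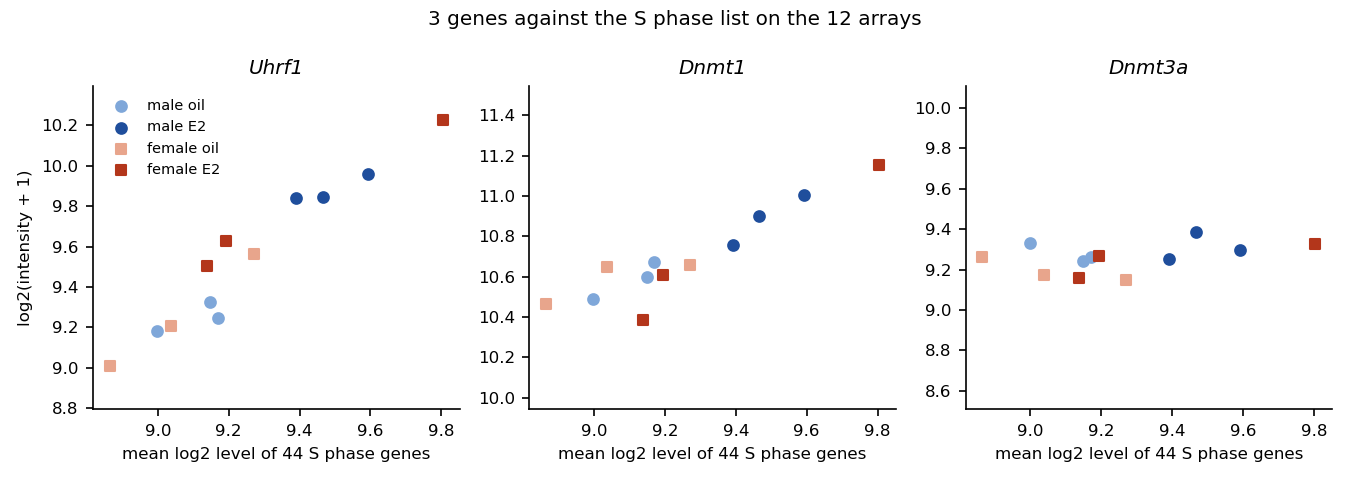
Log2(intensity + 1) of Uhrf1, Dnmt1 and Dnmt3a against the mean log2 level of 44 S phase genes, 1 point per array. The points of Uhrf1 (r = 0.965) and Dnmt1 (r = 0.926) rise along the axis, and those of Dnmt3a (r = 0.403) stay nearly level.

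The genes whose levels were most like each of the 7 over the 12 arrays were ranked by Pearson's r as a description. For Uhrf1 they were Clspn (0.982), Dut, the dUTPase that keeps uracil out of DNA (0.981), and Cenph, a kinetochore protein (0.980). For Dnmt1 they were Fignl1 (0.962), Hprt (0.960) and the nuclear export factor Cse1l (0.959). Tet1 was most like Arid1b, a subunit of the BAF chromatin remodeller (0.934), and then Tbc1d8 (0.904) and Pex11a (0.898). Dnmt3a was most like Dop1a (0.869), Dnmt3b like Repin1 (0.887), Tet2 like Ndufa3 (0.858) and Tet3 like Lrch3 (0.816).

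Genes that work with the 7 were described from 3 lists. Of 26 readers and cofactors of DNA methylation, 21 were above the filter, and in the average over the sexes 1 rose, 1 fell and 19 did not pass (limma; median 0.01). These 2 calls among 21 genes are near the background of 8.9%. Hells, a chromatin remodeller needed for DNA methylation, rose by 0.56 ± 0.15 (SE; adjusted p = 0.0368). Its intensity was 374, 374 and 384 in oil males and 524, 654 and 506 in E2 males, without overlap, and 418, 275 and 356 in oil females against 762, 440 and 383 in E2 females, with overlap. The Hells call was lost when 1 of 8 arrays was left out, namely any male array or replicate 2 or 3 of the oil females, with an adjusted p of at most 0.0992 and differences of 0.47 to 0.59. It was also lost without the filter (0.0808).
Zbtb4, a zinc finger protein that binds methylated CG sites, fell by 0.41 on the log2 scale (SE 0.09, limma adjusted p = 0.013). Its intensity was 279, 324 and 303 in oil males and 219.8, 202 and 249 in E2 males, and 257, 281 and 279 in oil females against 167, 221 and 241.5 in E2 females. All 6 E2 arrays lay below all 6 oil arrays, and the call held in each of the 12 fits without 1 array. Uhrf2, the paralog of Uhrf1, was at 0.01 (adjusted p = 0.941). Zbtb33 (Kaiso), another methyl-CG binder, was at −0.27 (adjusted p = 0.0681) and was called lower without replicate 1 of the E2 females. Within the sexes 0 of the 21 were called (limma, 4 at an unadjusted p under 0.05 in each). Of all 9967 genes at least 1315 in males and 1617 in females lay under that p, so 4 of 21 is near the background. Without replicate 1 of the E2 females, Hells and Zbtb4 were called in males and Zbtb33 in females, where 3.28% and 5.51% of all genes were called.

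Of 30 genes of active demethylation and TET partners, 15 were above the filter, and 1 rose, 1 fell and 13 did not pass (limma; median 0.08), against the same 8.9% of all genes called. Neil3, a DNA glycosylase, rose by 0.43 ± 0.09 (SE; limma adjusted p = 0.00939). Its means were 354 ± 68.7 and 452 ± 53.5 (SD, n = 3) in oil and E2 males and 364 ± 22.6 and 514 ± 22.0 in oil and E2 females. It was also called in females alone (0.50, adjusted p = 0.0462), where 3.56% of all genes were called. This call was lost in 10 of 12 fits without 1 array, those without replicate 1 of the oil males or replicate 2 of the E2 males being the exceptions, with an adjusted p of at most 0.165. It was lost too without the filter (0.109), with array weights (0.0838) and in a fit of the female groups alone (0.0658).
Idh1, which makes the 2-oxoglutarate that TET enzymes consume, fell by 0.38 on the log2 scale (SE 0.09, limma adjusted p = 0.0153). Its means were 432 ± 56.4 and 325 ± 3.69 (SD, n = 3) in males and 421 ± 16.5 and 331 ± 55.9 in females. Without replicate 1 of the E2 females Idh1 was called in males as well. The mitochondrial Idh2 was at −0.07 and the TET-bound glycosyltransferase Ogt at −0.09, neither called.

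Of 25 genes of the methyl donor and folate cycle, which supplies S-adenosylmethionine, 17 were above the filter, and 1 rose, 0 fell and 16 did not pass (median 0.15, with 13 of 17 above 0), a smaller share than the 8.9% of all genes called. Mthfd1l, the mitochondrial formyltetrahydrofolate synthetase, rose by 0.49 ± 0.13 (SE; limma adjusted p = 0.0334). Its means were 470.5 ± 59.5 and 626 ± 58.4 (SD, n = 3) in males and 442 ± 69.7 and 673 ± 206 in females. The Mthfd1l call was lost without the filter (0.075) and in the 6 fits that left out replicate 2 or 3 of the oil males, E2 males or oil females (adjusted p at most 0.0886). Pcna (0.26), Lig1 (0.40) and Tyms (0.38) stand both in these lists and in the S phase list, and none of them was called.

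**Figure D5:**
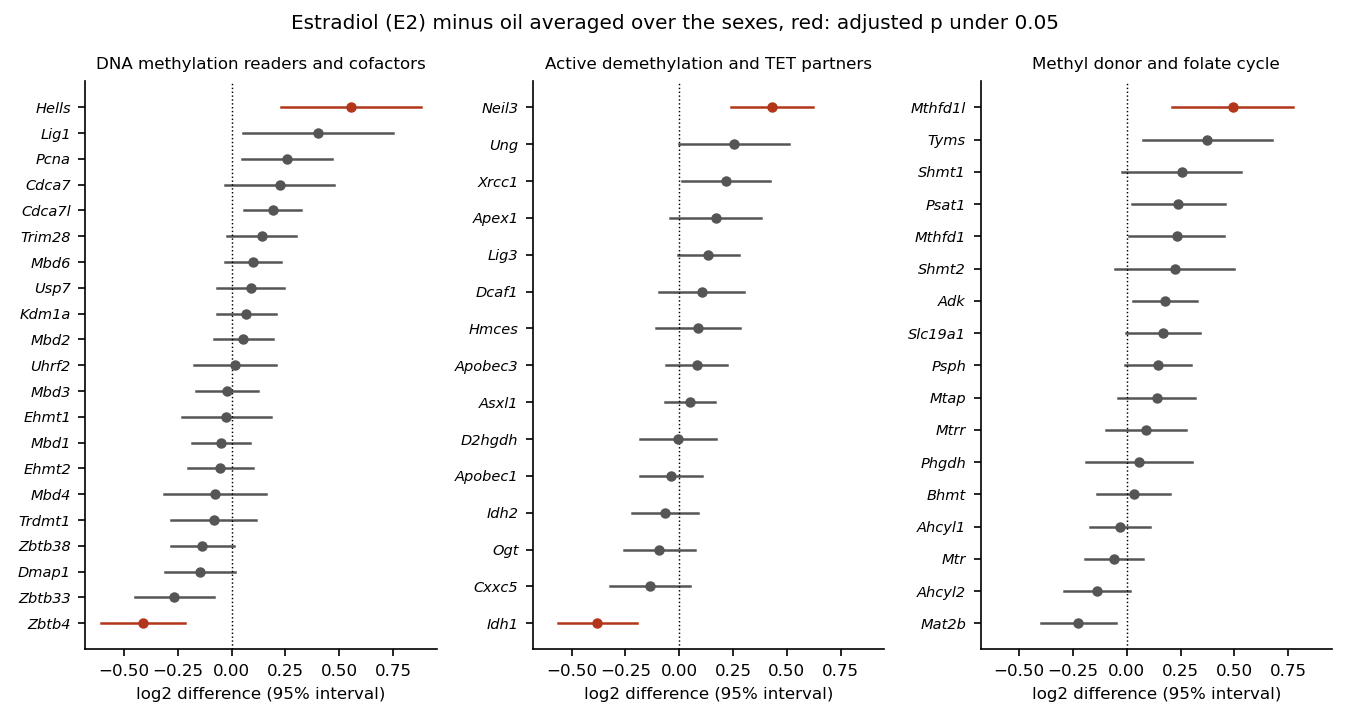
Log2 difference of E2 minus oil averaged over the sexes for the genes above the filter in the 3 lists of readers and cofactors, active demethylation and TET partners, and methyl donor and folate cycle, with 95% intervals from limma. The called genes, in red, are Hells (0.56), Zbtb4 (−0.41), Neil3 (0.43), Idh1 (−0.38) and Mthfd1l (0.49).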

How the data were processed

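Expression was measured on 12 Affymetrix arrays. The authors deposited linear probe set intensity values, and the sources used here do not give the summarisation, the normalization or how long treatment lasted. Per the labels, RNA was amplified with NuGEN Ovation Pico WTA V2. Symbols came from the platform annotation (21780 probe sets with 1 symbol, 1605 with several and 12089 with none, both of the latter left out), and 21689 Entrez identifiers matched RefSeq (GRCm38.p6), with 0 symbols changed. Among 19935 genes, 9967 with a mean log2(intensity + 1) above the median (7.52) were tested with limma 3.58.1 in R 4.3.3, 1 mean per group, eBayes with 8 residual and 5.38 prior degrees of freedom. The fit was run on simulated data with independent noise for each gene and array. That run does not cover shifts shared by many genes of an array, and no result here rests on it. The number of arrays limits the precision. The limma p-values set each difference against the spread between these samples within groups, moderated with that of all genes.

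The genes and lists were chosen with earlier results of these data known. Named were the 7 genes, list genes called (up to 8 per list in the average, up to 3 elsewhere), the 4 S phase genes with the lowest p, and for each of the 7 the 3 most similar genes. Other list genes given as not called were named after their values were seen. Correlations used Python 3.11.15, NumPy 2.4.6 and SciPy 1.17.1, and figures matplotlib 3.10.9. Motifs were searched on both strands. Alternatives were no filter, an offset of 16, median centring, quantile normalization, the mean of probe sets, single probe sets, trend and robust eBayes, array weights, fits of the compared groups alone, a replicate block and each array left out. Lists without replicate 1 of the E2 females were added after seeing the data.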

Additional observations from a re-analysis of the deposited data

How the results depend on the processing

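The averaged increase of Uhrf1 stayed called in every alternative run, at 0.47 to 0.66 without 1 array and 0.56 to 0.58 otherwise. The number of the 7 genes called in males was 1 in place of 0 with array weights and with only the groups compared, and 0 to 1 without 1 array. In females it was 0 to 1 without 1 array.

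Other reversals of sign concerned differences that were not called. For Dnmt1 the sex difference under oil was −0.019 with quantile normalization and −0.021 with array weights. With median centring the response difference of Dnmt3a was −0.060, that of Tet3 −0.071, the sex difference of Dnmt3b under E2 −0.027 and the male difference of Tet2 0.0037. With array weights the response difference of Dnmt3a was −0.0082, that of Tet3 −0.044, the sex difference of Dnmt3b under E2 −0.00078 and that of Uhrf1 under oil −0.047. Quantile normalization put the response difference of Dnmt3b at 0.029. The mean of probe sets put Tet3 at −0.017 in the average, −0.082 in males and 0.030 for sex under E2, and its second probe set at −0.086, −0.21 and 0.11. The second probe set of Tet1 had a response difference of 0.0026. The cause of these changes was not tested.

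Without 1 array, the ranges that crossed 0 were as follows. For Dnmt1 they were −0.092 to 0.29 in females and −0.044 to 0.067 for sex under oil. For Dnmt3a they were −0.0064 to 0.060 in males and −0.011 to 0.073 for the response difference. For Dnmt3b they were −0.025 to 0.076 for sex under E2 and −0.069 to 0.032 for the response difference. For Tet1 the response difference ran from −0.12 to 0.011, and for Tet2 the male difference from −0.11 to 0.034. For Tet3 they were −0.014 to 0.11 in the average, −0.073 to 0.18 in females, −0.017 to 0.13 in males, −0.15 to 0.072 for sex under E2, −0.14 to 0.064 under oil and −0.12 to 0.14 for the response difference. For Uhrf1 they were −0.32 to 0.044 for sex under E2, −0.14 to 0.13 under oil and −0.32 to 0.048 for the response difference.

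Over all genes, the calls in males numbered 143, against 80 with no filter, 409 with array weights, 390 with the compared groups alone and 62 to 327 without 1 array. In females they numbered 355, against 183, 226, 67 and 115 to 549. In the average they numbered 887, against 568 with no filter and 476 to 1147 without 1 array. Median centring moved the split of higher and lower calls from 81 and 274 to 45 and 358 in females, and from 311 and 576 to 202 and 516 in the average. Replicate numbers did not pair the samples: deviations of same-numbered arrays correlated at −0.26 to 0.20 in 18 pairs, and an array correlated best with its own number in 9 of 36 choices. With the replicate block, calls numbered 103 in males, 258 in females and 736 in the average, Uhrf1 was at 0.58 (limma adjusted p = 0.00797), and no call among the 7 genes changed. No background level was used here, so how far a signal lay above it is unknown, and 3 arrays per group limit the precision.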

Other observations

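Gadd45a, a stress-induced gene that has been tied to active DNA demethylation, fell with E2 in a fit without the filter, below which its mean over all arrays lay. It was singled out after its values were seen, among the 17 genes of the 3 lists that were below the filter. Its mean intensity was 241 ± 21.5 in oil males and 118 ± 11.7 in E2 males (SD, n = 3), and 222 ± 33.8 in oil females and 125 ± 43.4 in E2 females. The oil arrays lay between 183 and 265 and the E2 arrays between 85.2 and 171, so they did not overlap. Tested without a filter over 19935 genes, the averaged log2 difference was −0.94 ± 0.14 (SE; limma adjusted p = 0.00326). Of the 17 genes Gadd45a alone was called, against 2.85% of all genes in that fit. Within the sexes it missed the threshold, at −1.02 in males (adjusted p = 0.0501) and −0.87 in females (adjusted p = 0.069).

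Its paralog Gadd45b was at −0.24 (limma adjusted p = 0.413) and Gadd45g at 0.13 (adjusted p = 0.454). Mthfd2, a mitochondrial folate enzyme like Mthfd1l, was at 0.45 (adjusted p = 0.0993), with means of 134 and 180 in oil and E2 males and 144 and 200.2 in oil and E2 females. Zfp57, which guards methylation at imprinted regions, was at −0.34 (adjusted p = 0.0921).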
